A study of Mus musculus with 9 samples.

Results

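Cadherins, the epithelial adhesion molecule Epcam and the transcription factors of the epithelial-mesenchymal transition (EMT) were examined as 1 set of 9 genes in RNA-seq of differentiating mouse pluripotent stem cells (PSCs). The genes were Cdh1, Cdh3 and Epcam, which mark epithelia, Cdh2 and Cdh11, which mark mesenchyme, and Snai1, Snai2, Zeb1 and Zeb2. They were chosen by symbol, as the rows of the gene tables that carry these names in all 9 libraries. Earlier results of these data were known when they were chosen, so counts of members set against shares of all genes are a description. Each symbol named 1 of the 56691 genes of the tables, and all 9 genes were among the 16903 genes with counts high enough to test.

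Classical cadherins are adhesion molecules that bind the same cadherin on the neighbouring cell and hold the actin skeleton through catenins. During gastrulation, cells that leave the epithelial epiblast lose E-cadherin, encoded by Cdh1, and gain N-cadherin, encoded by Cdh2, and repressors of the SNAI and ZEB families shut Cdh1 off by binding E-boxes in its promoter. Primordial germ cells (PGCs) arise beside the cells that make this switch, and mouse PGCs carry E-cadherin.

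The libraries came from embryoid bodies (EBs) grown from BVSC PSCs, a mouse line in which the Blimp1 promoter drives the fluorescent protein mVenus (BV) and the Stella promoter drives CFP. Cells with BV signal (BV+) and without it (BV-) were sorted, and the study calls them PGC-like cells and somatic cells. Nrf1 encodes nuclear respiratory factor 1, a regulator of mitochondrial genes, and its cDNA was overexpressed (NRF1 OE) from the doxycycline-inducible p20 vector. The control (Ctrl) carried an empty vector. All groups share the BVSC line and the induced differentiation, and the protocol, given alike for every library, has doxycycline at 1.5 μg/mL from day 2 to day 5. Neither the labels nor the methods say whether the vector-bearing cells were 1 clone, and no animal was involved. There were 2 libraries of BV+ cells with NRF1 OE, 2 of BV+ cells with Ctrl, 3 of BV- cells with NRF1 OE and 2 of BV- cells with Ctrl. The methods speak of biological duplicates or replicates, but nothing ties a library to its own culture, so p-values measure the spread between these libraries, which may be technical.

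Total counts lay between 13702162 and 19625460 per library, and values are given as CPM, counts scaled to a common library size with TMM factors that lay between 0.969 and 1.03. The targeted gene was measured first. Nrf1 was at 95.7 and 99.4 CPM in BV+ cells with NRF1 OE and at 91.1 and 90.4 CPM in BV+ cells with Ctrl. In BV- cells it was at 119, 122 and 126 CPM with NRF1 OE and at 99.1 and 105 CPM with Ctrl. All NRF1 OE libraries were above their controls, but the log2 fold change was 0.10 ± 0.10 (SE) in BV+ cells and 0.26 ± 0.10 in BV- cells, with edgeR adjusted p of 0.489 and 0.0718, and neither passed the test. Between the sorted cells, Nrf1 was lower in BV+ than in BV- cells with NRF1 OE (-0.33 ± 0.10, edgeR adjusted p = 0.0431). With Ctrl that difference did not pass (-0.17 ± 0.10, adjusted p = 0.819). The transcript of the gene whose promoter drives the BV reporter did not separate the sorted cells. By real-time RT-PCR, the paper reports Blimp1 as raised by NRF1 OE in BV+ cells. Prdm1, which encodes BLIMP1, was at a mean of 54.9 CPM in BV+ and 54.8 CPM in BV- cells with NRF1 OE, and at 60.1 and 58.0 CPM with Ctrl. Of 11 PGC marker genes, 0 passed the test between BV+ and BV- cells with Ctrl, where 1.12% of all genes did, and with NRF1 OE 1 was higher and 3 were lower in BV+ cells, where 13.8% of all genes passed. BV+, BV-, NRF1 OE and Ctrl are used here as the names on the labels. The libraries also differed in how counts followed base composition. For each library, its log2 levels relative to the average library were set against the GC content of 14253 genes. Spearman's rho was -0.561 to -0.467 in the Ctrl libraries. The NRF1 OE libraries had 0.308 and 0.00674 (BV+) and 0.0445, 0.666 and 0.531 (BV-).

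Sequences next to the start site are shown for the members that carry the element the SNAI and ZEB repressors bind, the E-box CACCTG. RefSeq promoter windows of 300 bases were on hand for Epcam, Snai1 and Zeb2 (GRCm38.p6, 250 bases before to 50 after the start). Both windows below are written 5′ to 3′ on the strand of the gene, and capitals mark CACCTG or its reverse complement CAGGTG.
Epcam, chr17:87635729-87636028, plus strand: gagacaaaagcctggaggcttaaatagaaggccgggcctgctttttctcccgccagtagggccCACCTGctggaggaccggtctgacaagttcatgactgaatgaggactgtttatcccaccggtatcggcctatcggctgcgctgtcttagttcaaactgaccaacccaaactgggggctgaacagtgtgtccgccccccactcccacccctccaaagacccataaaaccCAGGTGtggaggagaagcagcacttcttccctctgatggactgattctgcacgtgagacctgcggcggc
Snai1, chr2:167537945-167538244, plus strand: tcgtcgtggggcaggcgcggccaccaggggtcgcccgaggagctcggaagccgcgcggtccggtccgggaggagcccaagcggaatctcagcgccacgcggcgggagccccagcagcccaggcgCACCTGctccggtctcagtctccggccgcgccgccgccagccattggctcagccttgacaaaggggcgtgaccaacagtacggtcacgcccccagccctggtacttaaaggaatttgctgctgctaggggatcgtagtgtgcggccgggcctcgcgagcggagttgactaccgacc
Epcam holds the element at 2 places, with the first base 187 and 19 bases before the start site, and Snai1 holds it once, 126 bases before it. Each CACCTG also matches the looser E-box CANNTG, of which Epcam has 1 more, CACGTG, at base 30 after the start. In the 4 windows of Zeb2 neither form was found, and the palindromic NRF1 motif was in none of the 6 windows. With both strands searched, CACCTG lay in 20.2% of 32851 mouse windows of this length, CANNTG in 72.3% and the NRF1 motif in 4.6%. A match of letters shows no binding.

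Levels were compared between genes on the scale of FPKM, which corrects for gene length and library size. Epcam was the highest, with 70.8 to 104.59 FPKM over the 9 libraries and a median of 92.37. Cdh1 followed with a median of 69.47 FPKM (53.77 to 78.26) and Cdh3 with 33.76 (27.77 to 51.61). The epithelial genes kept this order in each of the 9 libraries. On this scale the remaining members were more than an order of magnitude lower by their medians. Zeb1 had a median of 2.93 FPKM and Cdh2 of 1.72 FPKM, and these neighbours changed places, Zeb1 being above Cdh2 in 6 of the 9 libraries. Snai1 had a median of 0.99 FPKM, Snai2 of 0.48, Zeb2 of 0.14 and Cdh11 of 0.08. Snai1 was above Snai2 in 8 of 9 libraries, and each other gene of these was above the next in all 9, although all their ranges overlapped. The length implied by counts and FPKM was 19989 bases for Zeb2 and 8953 for Cdh11, against longest transcripts of 9124 and 5647 (GRCm38 annotation). For Snai2 the 2 lengths were alike, 2010 and 2021 bases. The order of Zeb2 and Snai2 thus depends on the length used.

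**Figure D1:**
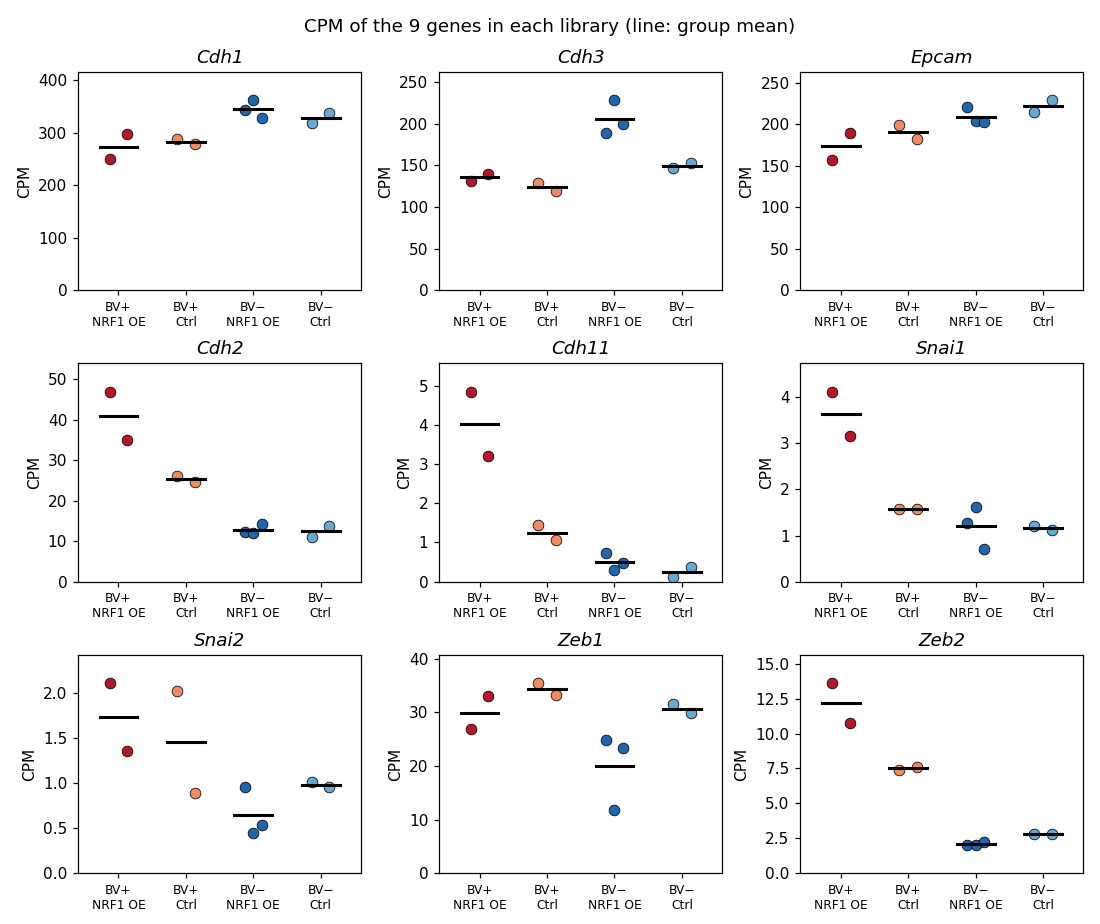
CPM of the 9 genes (y axes, each from 0) in each library (points) of the 4 groups (x axes), with a line at the group mean. Cdh2, Cdh11 and Zeb2 are highest in BV+ cells with NRF1 OE, lower in BV+ cells with Ctrl and lowest in both BV- groups, while Cdh1, Cdh3 and Epcam are somewhat lower in BV+ cells.

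Among the epithelial genes, Cdh1 was at 249 and 297 CPM in BV+ cells with NRF1 OE and at 288 and 278 CPM in BV+ cells with Ctrl. In BV- cells it was at 344, 361 and 328 CPM with NRF1 OE and at 318 and 338 CPM with Ctrl. The NRF1 OE libraries overlapped their controls in both populations, and every BV+ library was below every BV- library. Cdh3 encodes P-cadherin, and it was at 132 and 140 CPM in the BV+ libraries with NRF1 OE and 129 and 119 in those with Ctrl. The BV- libraries had 189, 228 and 200 (NRF1 OE) and 147 and 153 (Ctrl). The BV- libraries with NRF1 OE stood above the other 6. Epcam encodes an adhesion molecule found on epithelia and on pluripotent cells. It was at 157 and 190 CPM in the BV+ libraries with NRF1 OE and 199 and 183 in those with Ctrl. Its values in BV- cells were 221, 205 and 203 (NRF1 OE) and 216 and 229 (Ctrl). As for Cdh1, the treated and control libraries overlapped and each BV+ library was below each BV- library.

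The mesenchymal cadherins ran the other way. Cdh2 was at 46.9 and 34.9 CPM in BV+ cells with NRF1 OE and at 26.1 and 24.5 CPM in BV+ cells with Ctrl. In BV- cells it was at 12.2, 12.1 and 14.1 CPM with NRF1 OE and at 11.1 and 13.8 CPM with Ctrl. The 4 BV+ libraries were all above the 5 BV- libraries, and within BV+ cells the NRF1 OE libraries were above Ctrl. Cdh11 encodes OB-cadherin, a cadherin of mesenchyme and bone-forming cells. It was counted 94 and 59 times in BV+ cells with NRF1 OE (4.84 and 3.21 CPM), 22 and 20 times with Ctrl (1.44 and 1.05 CPM), and in BV- cells 12, 4 and 8 times with NRF1 OE and 2 and 7 times with Ctrl. Its order of groups was that of Cdh2, at counts so low in BV- cells that a few reads set the ratio.

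The 4 transcription factors did not share 1 pattern. Zeb2 was at 13.6 and 10.8 CPM in the BV+ libraries with NRF1 OE and 7.41 and 7.61 in those with Ctrl. BV- cells had 1.99, 1.99 and 2.25 (NRF1 OE) and 2.77 and 2.83 (Ctrl). It was thus higher in BV+ cells throughout, above Ctrl with NRF1 OE in BV+ cells and below Ctrl with NRF1 OE in BV- cells. Zeb1 was at 27.0 and 33.0 CPM in the BV+ libraries with NRF1 OE and 35.5 and 33.3 in those with Ctrl. The BV- libraries had 24.9, 11.9 and 23.3 (NRF1 OE) and 31.5 and 30.0 (Ctrl). The control libraries of both populations lay together, and library 2 of the BV- cells with NRF1 OE was the lowest of all. Snai1 encodes the repressor that starts EMT at gastrulation, and it was at 4.12 and 3.16 CPM in BV+ cells with NRF1 OE and at 1.57 CPM in both BV+ libraries with Ctrl. In BV- cells it was at 1.26, 1.62 and 0.711 CPM with NRF1 OE and at 1.20 and 1.12 CPM with Ctrl. BV+ cells with NRF1 OE were apart from the other 7 libraries, which held between 12 and 30 counts each. Snai2, which encodes the related repressor SLUG, had 6 to 41 counts per library. It was at 2.11 and 1.36 CPM in the BV+ libraries with NRF1 OE and 2.03 and 0.892 in those with Ctrl. Its values in BV- cells were 0.963, 0.442 and 0.533 (NRF1 OE) and 1.01 and 0.961 (Ctrl). Zeb1 shares 198 of its 10266 exon bases with Gm10125 on the other strand, and Zeb2 shares 653 of 19942 with Zeb2os (GRCm38 annotation). Whether the counting used the strand is not stated, so reads of these stretches cannot be assigned to 1 gene.

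The first comparison asked what NRF1 OE changed in BV+ cells. Of the 9 genes, 3 rose and 0 fell at an edgeR adjusted p under 0.05, where 6.24% of all genes tested rose, 1.78% fell and 8.02% passed in either direction. Cdh2 rose 1.62-fold (log2 fold change 0.69 ± 0.17 SE, adjusted p = 0.0376). Cdh11 rose 3.25-fold (1.70 ± 0.39, adjusted p = 0.0325), and its ratio of counts was 3.31 with a 95% exact interval of 2.34 to 4.78 for counting error alone. Zeb2 rose 1.62-fold (0.70 ± 0.18, adjusted p = 0.0426). Snai1 missed the threshold narrowly, with a log2 fold change of 1.21 ± 0.34 and an adjusted p of 0.0505. The epithelial genes did not pass: the log2 fold change was -0.05 for Cdh1 (95% interval -0.30 to 0.19), 0.13 for Cdh3 (-0.13 to 0.39) and -0.14 for Epcam (-0.40 to 0.12). These intervals leave out a change of Cdh1 as large as the one measured for Cdh2. Snai2 and Zeb1 were at 0.28 (-0.70 to 1.26) and -0.20 (-0.77 to 0.37). With the looser threshold of the study's methods, an unadjusted p under 0.05 and an absolute log2 fold change above 0.58, Snai1 joined the 3 called genes, and 17.0% of all genes passed.

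The calls in BV+ cells rested on few libraries. Without NRF1 OE library 1, the log2 fold changes were 0.47 for Cdh2, 1.38 for Cdh11 and 0.52 for Zeb2, and none passed, with adjusted p of 0.336, 0.306 and 0.345. Without BV+ Ctrl library 1 or 2 they were 0.74 or 0.65, 1.94 or 1.48, and 0.68 or 0.72, and none passed. The fit shares its estimate of spread over the groups, so BV- libraries mattered too. Without BV- NRF1 OE library 3 or BV- Ctrl library 1, Cdh2 (0.67 and 0.69) and Zeb2 (0.68 and 0.70) lost the call, and without BV- Ctrl library 2 Zeb2 did (0.75). Zeb2 was also lost with library size alone as the scaling (0.66). Snai1 passed without BV+ NRF1 OE library 2 (1.39, adjusted p = 0.0491), without each of the BV- NRF1 OE libraries (1.19 to 1.21), with RLE factors (1.21), without the filter on low counts (1.18), in DESeq2 (1.22), and on the BV+ libraries alone in DESeq2 (1.17) and edgeR (1.16). Cdh2, Cdh11, Snai1 and Zeb2 were above Ctrl in every one of these fits.

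In BV- cells, Cdh3 was the only member that passed the test of NRF1 OE against Ctrl. It rose 1.38-fold (log2 fold change 0.46 ± 0.11 SE, adjusted p = 0.0317), where 10.2% of all genes tested rose, 6.98% fell and 17.2% passed in either direction, so 1 of 9 is near the background. Zeb1 was at -0.61 ± 0.24 (adjusted p = 0.0858) and Zeb2 at -0.43 ± 0.21 (adjusted p = 0.154), with all 3 NRF1 OE libraries below both controls for each. Cdh2 was at 0.04 (95% interval -0.33 to 0.41), Cdh1 at 0.07 (-0.15 to 0.30), Epcam at -0.09 (-0.32 to 0.15) and Snai1 at 0.03 (-0.78 to 0.83). Cdh11 (0.95, -0.38 to 2.28) and Snai2 (-0.58, -1.65 to 0.49) had wider intervals. At the study's threshold Zeb1 alone passed, as a decrease, and 16.0% of all genes did. Cdh3 lost the call without BV- NRF1 OE library 3 (0.48), without either BV+ Ctrl library (0.46 for both) and without BV- Ctrl library 1 or 2 (0.43 and 0.48). It also lost the call in edgeR on the BV- libraries alone (0.46), where 0 genes of all passed. Zeb1 was called lower without BV- NRF1 OE library 1 (-0.79, adjusted p = 0.0362), without the filter on low counts (-0.61) and in DESeq2 (-0.625).

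With Ctrl, few genes passed between BV+ and BV- cells: 1.10% of those tested were higher in BV+ cells, 0.0237% lower and 1.12% passed in either direction. Among the 9 members, 2 were higher in BV+ cells and 0 lower. Zeb2 was 2.67-fold higher (log2 fold change 1.42 ± 0.20 SE, adjusted p = 0.00658) and Cdh2 2.02-fold higher (1.02 ± 0.18, adjusted p = 0.0183). Cdh11 had the largest value of the members in this comparison, 2.22 ± 0.56, but an adjusted p of 0.114 on 42 against 9 counts, a ratio of 4.7 with an exact interval of 2.26 to 11. It passed the study's threshold with Cdh2 and Zeb2, where 5.74% of all genes did. Cdh1, Cdh3 and Epcam were at -0.21 (95% interval -0.46 to 0.03), -0.27 (-0.53 to -0.01) and -0.22 (-0.48 to 0.04) and did not pass, with adjusted p of 0.737, 0.604 and 0.755. Snai1 (0.44), Snai2 (0.54) and Zeb1 (0.16) did not pass either. Both calls rested on the control libraries. Cdh2 lost the call without BV+ Ctrl library 1 (0.97), without BV+ Ctrl library 2 (1.06), without BV- Ctrl library 1 (0.87) and without BV- Ctrl library 2 (1.16), and Zeb2 lost it without the last 3 of these (1.40, 1.40 and 1.41). Cdh11 passed without BV- NRF1 OE library 2 (2.25, adjusted p = 0.0228), without the filter (2.24) and, with Cdh3 (-0.26), in edgeR on the Ctrl libraries alone (2.23).

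With NRF1 OE, 5 of the 9 members passed between BV+ and BV- cells: 4 higher in BV+ cells, where 9.90% of all genes were, and 1 lower, where 3.85% were, with 13.8% in either direction. Zeb2 was 5.85-fold higher (log2 fold change 2.55 ± 0.18 SE, adjusted p = 6.88e-06), and Cdh2 was 3.19-fold higher (1.67 ± 0.16, adjusted p = 3.71e-05). Cdh11 was 7.86-fold higher (2.97 ± 0.39, adjusted p = 0.000419), on 153 against 24 counts. Snai1 was 3.07-fold higher (1.62 ± 0.31, adjusted p = 0.00567). In the other direction, Cdh3 was 1.52-fold lower in BV+ cells (-0.60 ± 0.11, adjusted p = 0.0038). The mesenchymal cadherins, Snai1 and Zeb2 were thus higher and P-cadherin lower in BV+ than in BV- cells with NRF1 OE. Against Ctrl, Cdh3 did not fall with NRF1 OE in BV+ cells (0.13), and in BV- cells it rose (0.46). Cdh1 was close to the threshold at -0.34 ± 0.10 (adjusted p = 0.0519), and so was Snai2 at 1.40 ± 0.45 (adjusted p = 0.0606). Epcam (-0.27, adjusted p = 0.13) and Zeb1 (0.58, adjusted p = 0.14) did not pass. At the study's threshold Snai2 joined the 5 called genes, and 14.7% of all genes passed. Zeb2, Cdh2 and Cdh11 passed without any single library, with ranges of 2.37 to 2.70, 1.44 to 1.87 and 2.65 to 3.34. Without BV+ NRF1 OE library 1, Cdh3 (-0.56, adjusted p = 0.0576) and Snai1 (1.41, adjusted p = 0.0795) lost the call. Cdh1 passed without BV+ NRF1 OE library 2 (-0.47, adjusted p = 0.0327), without BV- NRF1 OE library 1 (-0.34, adjusted p = 0.05), in DESeq2 (-0.34) and with offsets for GC content and length (-0.45), and Snai2 passed without that BV- library (1.81) and with the offsets (1.31). Without the filter on low counts, Snai2 (1.40) and Zeb1 (0.57) passed.

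**Figure D2:**
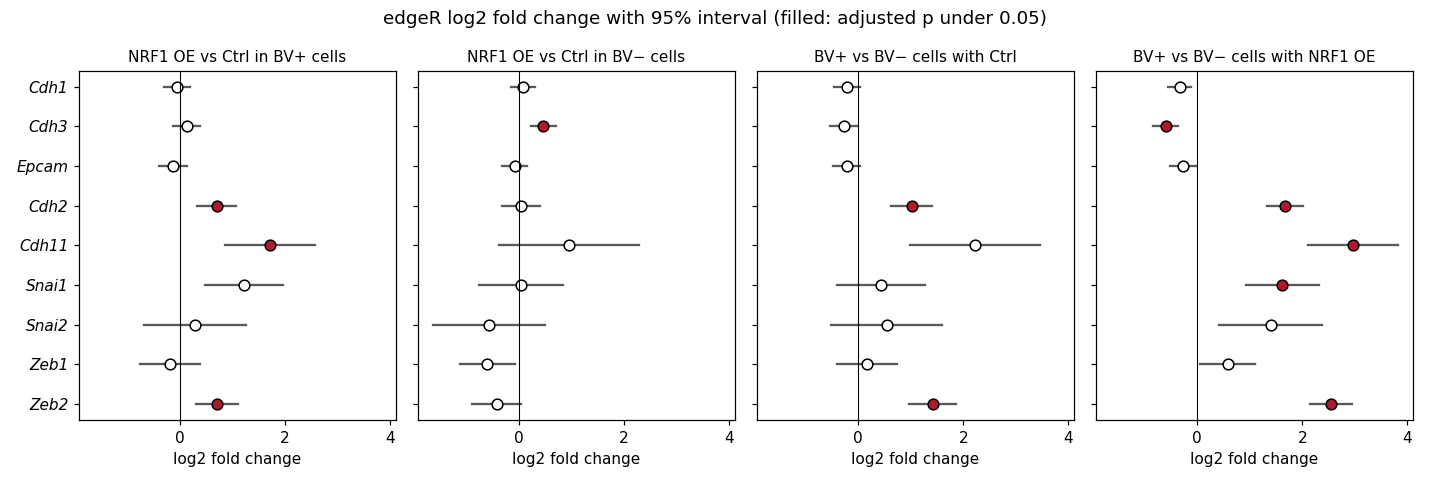
edgeR log2 fold change (x axes) of the 9 genes (y axis) in the 4 comparisons between groups, with bars for the 95% interval and filled points for an adjusted p under 0.05. The filled points lie right of 0 for Cdh2, Cdh11, Snai1 and Zeb2, and for Cdh3 right of 0 in BV- cells with NRF1 OE against Ctrl and left of 0 in BV+ against BV- cells with NRF1 OE.

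The separation of groups was read against that of all genes. In BV+ cells, NRF1 OE and Ctrl did not overlap for 6 of the 9 members, as for 70.1% of all genes, and in BV- cells for 3 of 9, as for 57.0%. BV+ and BV- cells did not overlap for 8 of 9 members with Ctrl, where 48.0% of all genes did not, and for 9 of 9 with NRF1 OE, where 39.9% did not. In those 9, the 2 mesenchymal cadherins and the 4 transcription factors were higher in BV+ cells and Cdh1, Cdh3 and Epcam lower. The members' median log2 fold change was 0.28 for NRF1 OE in BV+ cells (0.04 over all genes), 0.03 in BV- cells (0.01), 0.44 for BV+ against BV- cells with Ctrl (-0.01) and 1.40 with NRF1 OE (-0.00492). The comparisons share libraries, each of the 4 groups entering 2 of them, so their values are not independent of each other.

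Whether the NRF1 OE effect differed between BV+ and BV- cells was tested as 1 term of the same fit. No member passed, and 0 of the 16903 genes did in edgeR, with 932 genes (5.51%) at an unadjusted p under 0.05 and 23 genes called by DESeq2. Zeb2 had the smallest p of the members, with a difference of 1.13 ± 0.28 on the log2 scale (adjusted p = 0.514 in edgeR). The difference was 0.66 ± 0.24 for Cdh2 (adjusted p = 0.737) and 1.18 ± 0.50 for Snai1 (adjusted p = 0.843). Those 3 genes passed the study's threshold, as did 4.48% of all genes. The calls of Cdh2, Cdh11 and Zeb2 in BV+ cells, with none in BV- cells, therefore do not show an effect that differs between the populations.

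The balance of epithelial and mesenchymal cadherin was taken as the ratio of Cdh1 to Cdh2 in FPKM. In BV+ cells it was 9.35 and 15.0 (NRF1 OE) against 19.5 and 20.0 (Ctrl). BV- cells had 49.4, 52.9 and 41.1 (NRF1 OE) and 50.5 and 43.0 (Ctrl). Cdh1 exceeded Cdh2 in each library, and the ratio was lowest in BV+ cells with NRF1 OE and overlapped between the BV- groups. In BV+ cells the ratio of Zeb1 to Zeb2 was 3.88 and 5.98 (NRF1 OE) against 9.54 and 8.51 (Ctrl). The BV- libraries had 23.8, 11.4 and 20.0 (NRF1 OE) and 22.1 and 20.9 (Ctrl). It too was lowest in BV+ cells with NRF1 OE, and every BV- library was above every BV+ library. In bulk RNA, fewer cells of a type and less RNA per cell cannot be told apart. The size of each ratio depends on the gene lengths behind FPKM, but its order between libraries does not. The ratios are given as a description, with no test.

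**Figure D3:**
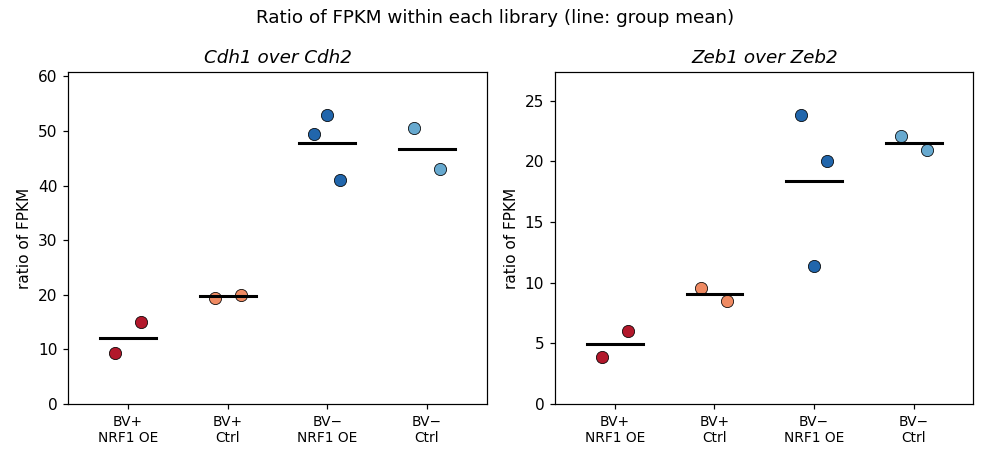
Ratio of Cdh1 to Cdh2 and of Zeb1 to Zeb2 in FPKM (y axes) in each library (points) of the 4 groups (x axes). Both ratios are lowest in BV+ cells with NRF1 OE, at 9.35 to 15.0 and 3.88 to 5.98, and highest in BV- cells.

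The trend over GC content touched the members unequally, since Zeb2 and Snai2 have transcripts low in GC (40.6% and 42.6%) and Snai1 has one high in GC (59.8%). Those of Cdh1 and Cdh2 are near the middle of the genes tested, at 50.7% and 49.5%. With library-specific offsets for GC content and length, the log2 fold change in BV+ cells was 0.71 for Cdh2 and 1.93 for Cdh11, and it moved to 1.07 for Zeb2 and 0.76 for Snai1. The 3 calls in BV+ cells held with the offsets, at adjusted p of 0.0169, 0.0105 and 0.0113 for Cdh2, Cdh11 and Zeb2, and Snai1 was farther from the threshold, at 0.121. In BV- cells Zeb2 turned from -0.43 to 0.20 and Snai1 from 0.03 to -0.42, both without a call. Epcam went from -0.14 to -0.34 in BV+ cells (adjusted p = 0.077) and from -0.09 to -0.32 in BV- cells (adjusted p = 0.088). Zeb1 in BV- cells went from -0.61 to -0.31 (adjusted p = 0.244), and Cdh3 there went from 0.46 to 0.35 and stayed called (adjusted p = 0.0313). Between BV+ and BV- cells with NRF1 OE, Zeb2 was at 2.10 and Cdh2 at 1.52 with the offsets, against 2.55 and 1.67 without.

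**Figure D4:**
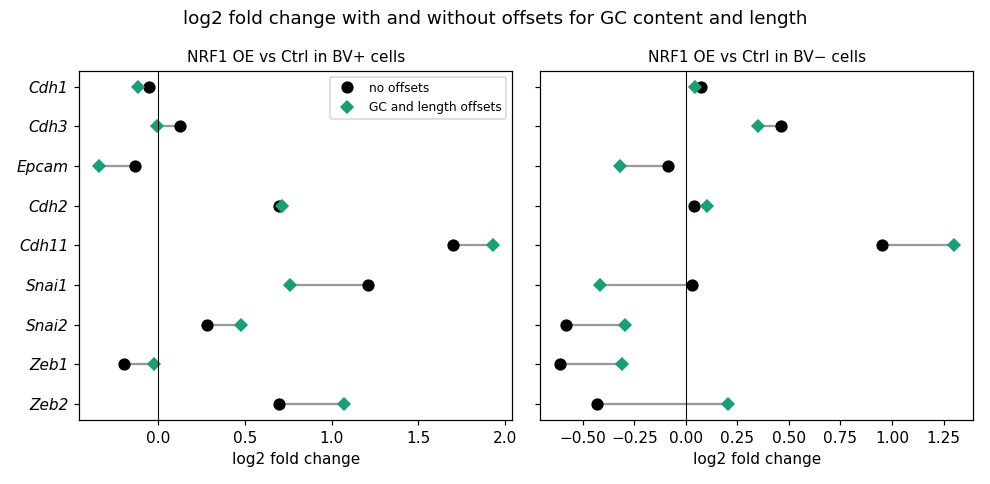
log2 fold change of NRF1 OE against Ctrl (x axes) for the 9 genes (y axis) in BV+ and in BV- cells, without (circles) and with (diamonds) library-specific offsets for GC content and length. Cdh1 and Cdh2 move little, Epcam moves down in both panels, and Zeb2 in BV- cells moves from -0.43 to 0.20.

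Genes of the same pathway were described by lists, whose counts are to be read against the shares of all genes tested. With NRF1 OE, 6.24% of all genes rose and 1.78% fell in BV+ cells, and 10.2% rose and 6.98% fell in BV- cells. In BV+ against BV- cells, 1.10% were higher and 0.0237% lower with Ctrl, and 9.90% and 3.85% with NRF1 OE. In short lists, counts of 1 or 2 genes can be near these shares and are no result about the list. Of 11 catenins and other adherens junction genes, 2 rose with NRF1 OE in BV+ cells and 2 in BV- cells, and 0 fell in either. Jup, which encodes plakoglobin, rose in both, with log2 fold changes of 0.47 (adjusted p = 0.0446) and 0.41 (adjusted p = 0.0394), Ctnnd2 rose in BV+ cells (0.76, adjusted p = 0.0492), and Nectin2 rose in BV- cells (0.64, adjusted p = 0.0358). Ctnnb1 and Ctnna1, which encode the catenins that tie cadherins to actin, passed in none of the 4 comparisons. Between BV+ and BV- cells, 0 of the list passed with Ctrl and 2 with NRF1 OE, Ctnna2 (1.44) and Ctnnd2 (0.68), both higher in BV+ cells.

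Of 15 other cadherins, 11 could be tested. Most are classical cadherins, and Cdh13 encodes T-cadherin, which is held by a lipid anchor and lacks the tail that binds catenins. With NRF1 OE, 2 rose in BV+ cells (median 0.41) and 0 passed in BV- cells. Against BV- cells, 2 were higher in BV+ cells with Ctrl (median 0.76) and 6 with NRF1 OE (median 1.32), and 0 were lower. Cdh6, a cadherin of kidney and neural crest, was at a mean of 29.0 CPM in BV+ cells with NRF1 OE, 10.5 with Ctrl, and 2.47 and 1.73 in BV- cells. It rose with NRF1 OE in BV+ cells by 1.47 on the log2 scale (edgeR adjusted p = 0.0137) and was higher in BV+ than in BV- cells with Ctrl (2.57) and with NRF1 OE (3.56). Cdh5 encodes VE-cadherin, the cadherin of endothelium, and was at 6.37, 2.12, 0.353 and 0.483 CPM in the same order of groups. Its log2 fold changes in these comparisons were 1.59, 2.09 and 4.12 (adjusted p = 0.0204, 0.0383 and 1.99e-05). Cdh6 and Cdh5 were thus, like Cdh2 and Cdh11, highest in BV+ cells with NRF1 OE and lowest in the BV- groups. Not all of the list did so. In the same order of groups, mean Cdh15 was 2.90, 2.03, 4.56 and 3.03 CPM, and mean Cdh9 was 3.75, 4.91, 3.98 and 6.73. At the study's threshold 7 of the list were higher and 1 lower in BV+ than in BV- cells with NRF1 OE.

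Of 28 genes of epithelial junctions and keratins, 4 rose with NRF1 OE in BV+ cells and 11 in BV- cells, and 0 fell in either. The median log2 fold change of the list was 0.43 in BV+ cells and 0.51 in BV- cells. In BV- cells the claudin genes Cldn4 (0.95, adjusted p = 0.0317) and Cldn3 (1.27, adjusted p = 0.0317) rose, as did the membrane protease gene St14 (0.60, adjusted p = 0.0317). In BV+ cells Cldn4 (0.52, adjusted p = 0.0348), Pkp2 (0.43, adjusted p = 0.045) and Krt8 (1.40, adjusted p = 0.0376) rose. BV+ cells with NRF1 OE were higher than BV- cells for 9 genes of this list and lower for 1, with Krt8 at 2.25, Dsc2 at 1.88 and Dsp at 1.36. The list as a whole was not shifted in this comparison, with a median of -0.02. Cldn4 (71.4 and 97.5 CPM), Cldn3 (6.35 and 8.93) and St14 (59.8 and 75.4) had lower means in BV+ than in BV- cells with NRF1 OE. With Ctrl, Krt7 alone was higher, at 2.65. Not every desmosome gene was higher in BV+ cells with NRF1 OE. Pkp3 had a mean of 3.40 CPM in BV+ and 5.59 in BV- cells. Dsg2 had 25.7 and 26.3 CPM with overlapping libraries, which shows no direction. Pkp2 (62.3 and 50.4 CPM) and Perp (5.32 and 2.27 CPM) were higher in BV+ cells by their means, as were Dsp and Dsc2.

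Of 10 regulators of the epithelial state that could be tested, 1 fell and 0 rose with NRF1 OE in BV+ cells, and 2 rose and 1 fell in BV- cells. Klf4, a pluripotency and epithelial factor, fell by 0.67 on the log2 scale in BV+ cells (adjusted p = 0.0472) and fell by 0.63 in BV- cells (adjusted p = 0.0377). In BV- cells Elf3 (0.67, adjusted p = 0.0358) and Esrp1 (0.55, adjusted p = 0.0405), a splicing factor of epithelia, rose. Between BV+ and BV- cells 0 passed with Ctrl, and with NRF1 OE Esrp1 was lower in BV+ cells (-0.68, adjusted p = 0.0135).

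Of 8 other EMT transcription factors tested, 2 rose with NRF1 OE in BV+ cells, and 1 rose and 1 fell in BV- cells. Foxc1, a mesoderm factor, had a mean of 15.7 CPM in BV+ cells with NRF1 OE, 4.48 with Ctrl, and 0.406 and 0.313 in BV- cells. It rose with NRF1 OE in BV+ cells (log2 fold change 1.82, adjusted p = 0.00966), and so did Prrx2 (1.49, adjusted p = 0.0198). Tcf3 rose (0.51) and Tcf4 fell (-0.85) in BV- cells. Between BV+ and BV- cells, Foxc1 was higher in BV+ cells with Ctrl (3.78, adjusted p = 0.00059) and with NRF1 OE (5.26, adjusted p = 1.16e-06), the latter together with Prrx2 (1.63) and Sox9 (2.70).

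Of the 7 lists, mesenchymal genes had the highest median for NRF1 OE in BV+ cells. Of 16 genes tested, 10 rose and 1 fell with NRF1 OE in BV+ cells, with a median log2 fold change of 1.19, and 3 rose and 1 fell in BV- cells, with a median of 0.20. Col1a1 and Col1a2 encode the chains of type I collagen. Col1a2 was at a mean of 485 CPM in BV+ cells with NRF1 OE, 101.0 with Ctrl, and 14.3 and 9.10 in BV- cells, and it rose 4.8-fold in BV+ cells (log2 fold change 2.26, adjusted p = 0.00966). Col1a1 rose 3.88-fold (1.96, adjusted p = 0.00669), and Acta2, which encodes smooth muscle actin, rose 4.97-fold (2.31, adjusted p = 0.00966). In BV- cells Acta2 (0.87) and Tagln (1.26) rose, and Pdgfra, a receptor gene of mesenchyme, fell by 1.29 (adjusted p = 0.0317). Pdgfra was also the gene that fell in BV+ cells, at -1.17 (adjusted p = 0.0174). Against BV- cells, 3 were higher in BV+ cells with Ctrl (Col1a1 at 2.80, Col1a2 at 3.46 and Col3a1 at 3.92) and 10 with NRF1 OE (Col1a1 at 4.57, Col1a2 at 5.08 and Col5a1 at 2.12), and 0 were lower. The medians were 0.63 and 1.73.

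TGF-beta signalling is a known inducer of EMT, and 9 of its ligand, receptor and SMAD genes were tested. In BV+ cells 4 rose with NRF1 OE and 0 fell, among them Tgfb2 (1.44, adjusted p = 0.0221), Tgfb1 (1.38, adjusted p = 0.0221) and Smad3 (0.58, adjusted p = 0.0244). In BV- cells 0 rose and 1, the receptor gene Tgfbr1, fell by 0.70 (adjusted p = 0.0421). BV+ cells were higher than BV- cells for Tgfb2 with Ctrl (2.38, adjusted p = 0.012) and for 7 of the 9 with NRF1 OE, with Tgfb2 at 4.33, Tgfb1 at 1.92 and Tgfb3 at 2.15.

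**Figure D5:**
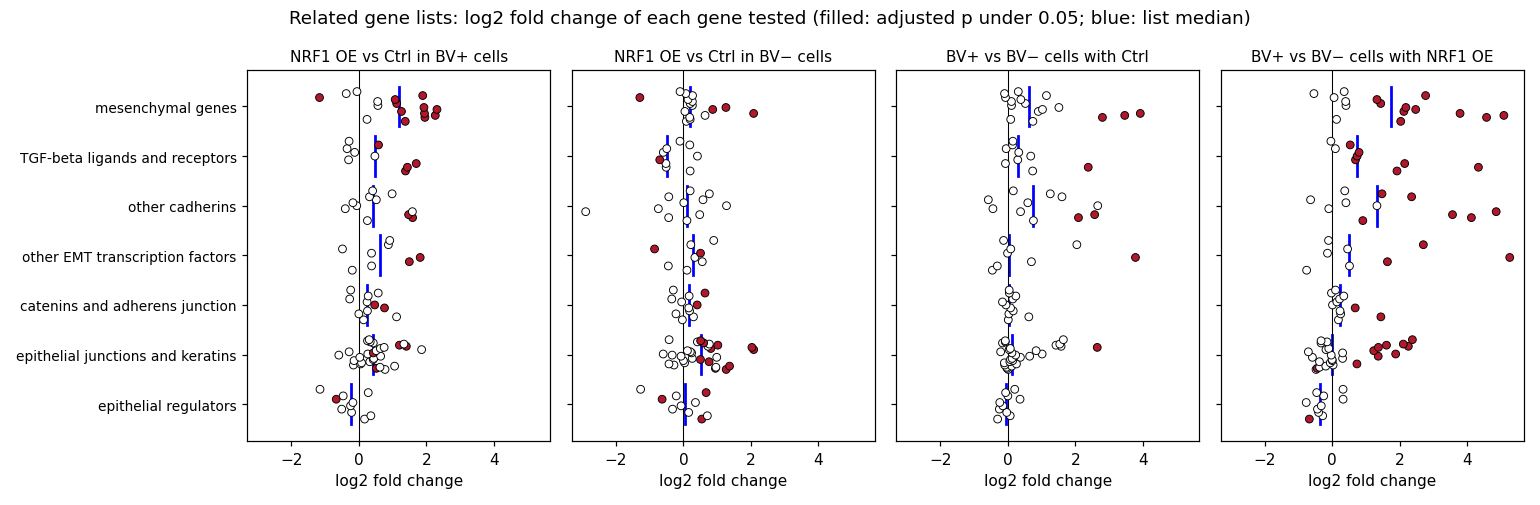
log2 fold change (x axes) of each gene tested in 7 related lists (y axis) in the 4 comparisons between groups. Filled points passed an adjusted p under 0.05, and the vertical blue bar is the list's median. Mesenchymal genes have medians of 1.19 and 1.73 in the first and the last panel, and epithelial junction genes have medians of 0.43 and -0.02.

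Some markers of other cell types were highest in BV+ cells with NRF1 OE, as the mesenchymal cadherins were. Their counts stand against the same shares of all genes, 6.24% rising with NRF1 OE in BV+ cells and 10.2% in BV- cells. In BV+ against BV- cells, 1.10% were higher with Ctrl and 9.90% with NRF1 OE. Of 7 endothelial genes, 3 rose with NRF1 OE in BV+ cells and 5 were higher in BV+ than in BV- cells with NRF1 OE. Kdr, the VEGF receptor gene, was at 25.4 and 17.1 CPM in the BV+ libraries with NRF1 OE and 6.55 and 8.55 in those with Ctrl. Its values in BV- cells were 1.75, 1.62 and 1.42 (NRF1 OE) and 1.89 and 2.56 (Ctrl). Emcn, which encodes the endothelial sialomucin endomucin, had 48 and 25 counts in the BV+ libraries with NRF1 OE and 8 and 7 in those with Ctrl. In BV- cells it had 2, 0 and 0 counts with NRF1 OE and 0 in both libraries with Ctrl. Pecam1 and Tek did not follow this pattern. Mean Pecam1 was lowest in BV+ cells with NRF1 OE, at 122 CPM, against 145 in BV+ cells with Ctrl and 163 in both BV- groups. Tek was at 16.6, 16.4, 14.1 and 17.6 CPM in the order BV+ NRF1 OE, BV+ Ctrl, BV- NRF1 OE and BV- Ctrl. The summed level of the 7 genes, most of it Pecam1, did not separate the groups. It was 162 to 196 CPM in BV+ cells with NRF1 OE, 172 to 181 with Ctrl, 171 to 190 in BV- cells with NRF1 OE and 182 to 189 with Ctrl. Of 5 heart muscle genes, 2 rose with NRF1 OE in BV+ cells (median 0.65) and 1 in BV- cells (median 0.77), 1 was higher in BV+ than in BV- cells with Ctrl and 3 with NRF1 OE. Their sum was 31.4 to 37.8 CPM in BV+ cells with NRF1 OE, 20.0 to 20.4 with Ctrl, 25.4 to 39.2 in BV- cells with NRF1 OE and 17.7 to 21.3 with Ctrl, so it did not follow Cdh2 and Cdh11 in BV- cells. The part of these cells in the levels of Cdh2, Cdh11 and Zeb2 was not tested.

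The members varied together to unequal degrees over the 9 libraries. Pearson's r of log2 CPM was 0.97 between Cdh2 and Zeb2, 0.95 between Cdh2 and Cdh11, -0.90 between Cdh1 and Cdh2, and -0.92 between Cdh1 and Zeb2. Cdh3 and Epcam, both epithelial, were at 0.47 with each other. Zeb1 was at -0.85 with Cdh3, 0.69 with Snai2, 0.55 with Zeb2 and 0.42 with Cdh2, and near 0 with Snai1 (0.12) and Epcam (-0.11). All of these points share the 4 groups and the libraries' trends over GC content, and the values are a description. Among 10986 genes at 5 CPM or more on average, the 3 with the pattern most like Cdh2 were Il17rd (r = 0.996), Grb10 (0.994) and Dlk1 (0.994). For Cdh1 they were Nudc (0.985), Rab3ip (0.979) and Gins4 (0.975), and for Epcam Cmas (0.981), Cenpn (0.963) and Ctps (0.963).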

How the data were processed

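RNA-seq was analysed for 9 libraries in 4 groups. The authors trimmed paired reads with Cutadapt, used HISAT2 2.0.1 for mapping to GRCm39 and, with HTSeq 0.6.1, made the deposited count per gene of 56691 genes, which is not normalized. The authors also deposited FPKM from the same counts, used here to compare genes within a library and for ratios. The strand setting of the counting is not given in the sources used here.

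The counts were tested in R 4.3.3 with edgeR 4.0.16 (quasi-likelihood F test, TMM, filterByExpr) in 1 fit of all 9 libraries with a term per group, with Benjamini-Hochberg adjustment over 16903 genes. A gene was called at an adjusted p under 0.05. Intervals are 95% intervals of the fit, tests were two-sided, and the common biological coefficient of variation was 0.129. A prior count of 2 was used for log2 CPM in the correlations and the trend over GC content, not for the tested log2 fold changes. With 2 or 3 libraries in a group, a gene's spread leans on the spread of the other genes. Total counts are given in the report, and exact intervals cover counting error only. Replicate pairs differed by 2.91 to 32.2 times sampling noise (chi-square over degrees of freedom), so no library was counted as a repeat of another.

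The members and gene lists were chosen with earlier results of these data known. Named besides the 9 members were, for each list and comparison, at most 3 called genes with the smallest p, the 3 genes most alike Cdh1, Cdh2 and Epcam by Pearson's r over the 9 libraries, and the markers. Genes named outside this rule were chosen after their values were seen. They were Ctnna1, Ctnnb1, Cdh5 where it was not among the 3, Cdh9, Cdh13, Cdh15, Pkp3, Dsg2, Perp and Prdm1. So were Emcn and Kdr per library, and the means of Pkp2, Cldn3, Cldn4 and St14 in BV+ and BV- cells. The lists were catenins and adherens junction, other cadherins, epithelial junctions and keratins, epithelial regulators, other EMT transcription factors, mesenchymal genes, TGF-beta genes, and markers of PGCs, pluripotency, mesoderm, endoderm, neuroectoderm, endothelium, blood and heart muscle. Alternatives were RLE factors, library size alone, no filter, DESeq2 1.42.0, fits of the groups compared, offsets for GC content and length from a GRCm38 annotation (98.6% of the genes tested matched by identifier), the replicate number as a block, leaving out each library, and the study's threshold. Scripts were checked on simulated counts.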

Additional observations from a re-analysis of the deposited data

Results flagged for a closer look

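Zeb2 had opposite signs for NRF1 OE in the sorted populations: both BV+ libraries were above both BV+ controls, and all 3 BV- libraries were below both BV- controls. The log2 fold change was 0.70 in BV+ cells and -0.43 in BV- cells, where it did not pass (adjusted p = 0.154), and the difference of 1.13 ± 0.28 had a p of 0.00183 but an adjusted p of 0.514 in edgeR. Over its alternatives the adjusted p of the difference lay between 0.195 and 1. With offsets for GC content and length the BV- value was 0.20, so both directions were then the same, and the difference was 0.86.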

How the results depend on the processing

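Over the alternatives, the log2 fold changes of the 9 members in the 5 comparisons kept their direction and their side of the threshold in 708 of 791 values, lost a call in 37, gained 1 in 25 and changed sign in 21. The precision is set by 2 or 3 libraries per group and, for Cdh11, Snai1 and Snai2, by 2 to 94 counts per library. Calls of all genes in the order NRF1 OE in BV+ cells, NRF1 OE in BV- cells, BV+ against BV- cells with Ctrl, and the same with NRF1 OE, were 1355, 2910, 190 and 2325. They moved by over 1.5 times in the fits below, whose cause was not tested beyond the fewer or more genes and libraries that they hold.

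Without a filter on low counts 3440, 4392 and 529 genes were called in the first 3, with 2 members in BV- cells, and 108 for the difference of effects. DESeq2 called 2106 in BV+ cells, 2 members in BV- cells, 303 genes with Ctrl and 23 for the difference. DESeq2 on the groups compared called 3443 in BV+ cells, 490 with Ctrl and 1369 with NRF1 OE. edgeR on the groups compared called 4371 in BV+ cells (2096 higher, 2275 lower, against 1054 and 301), 0 genes and 0 members in BV- cells, 890 genes and 4 members with Ctrl, and 1260 genes with NRF1 OE. Offsets for GC content and length gave 2093 in BV+ cells (1147 higher, 946 lower), 1032 in BV- cells (720 higher, 312 lower, against 1731 and 1179) and 4634 with NRF1 OE (1790 higher, 2844 lower, against 1674 and 651). The study's threshold gave 2870 in BV+ cells, 971 with Ctrl, and 3 members and 757 genes for the difference.

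The replicate numbers did not clearly pair the libraries: the deviations of libraries with the same number correlated between -0.295 and 0.243. These values cannot decide the pairing, since in a group of 2 libraries the deviations mirror each other and few values are independent. For BV- NRF1 OE with BV- Ctrl libraries both were positive, at 0.204 and 0.243. With the replicate number as a block, 0, 0 and 1 members (Zeb2) and 3, 0 and 121 genes were called in the first 3 comparisons, and 1064 genes with NRF1 OE. The adjusted p was then 0.0797 to 0.111 for Cdh2, Cdh11 and Zeb2 in BV+ cells, 0.107 for Cdh3 in BV- cells and 0.0731 for Cdh2 with Ctrl. The block together with the offsets left 0 members and 12 genes in BV- cells, 1 member with Ctrl, and 1 gene for the difference.

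Leaving out 1 library at a time, members called ranged from 0 to 4, 0 to 2, 0 to 3 and 3 to 7, and all genes from 0 to 4957, 0 to 5847, 31 to 484 and 786 to 3182, with 0 to 33 genes for the difference. None of the values whose sign changed was called in the fit of the report. With library size alone they were Cdh2 (-0.00139) and Snai1 (-0.00838) in BV- cells. With the offsets they changed for Cdh3 in BV+ cells (-0.00489) and for Snai1 (-0.419) and Zeb2 (0.203) in BV- cells. With the block they changed for Cdh2 in BV- cells (-0.0432), and with block and offsets for Cdh3 in BV+ cells (-0.00616), Snai1 (-0.144) and Zeb2 (0.191) in BV- cells. Leaving out 1 library, the values ranged from -0.184 to 0.0706 for Cdh1 (NRF1 OE in BV+ cells), from -0.223 to 0.96 for Snai2 (NRF1 OE in BV+ cells), from -0.11 to 0.196 for Cdh2 (NRF1 OE in BV- cells), from -0.258 to 0.301 for Snai1 (NRF1 OE in BV- cells), from -0.142 to 1.04 for Snai2 (BV+ against BV- cells with Ctrl), from -0.184 to 1.27 for Cdh11 (the difference of effects) and from -0.195 to 0.0797 for Epcam (the difference of effects).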

Other observations

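Marker lists of other cell states were counted in the same fit, and their counts are to be read against the shares of all genes. With NRF1 OE, 6.24% of all genes rose and 1.78% fell in BV+ cells, and 10.2% rose and 6.98% fell in BV- cells. In BV+ against BV- cells with NRF1 OE, 9.90% were higher and 3.85% lower. Of 11 PGC genes, 2 rose with NRF1 OE in BV+ cells (Itgb3 by 1.02 and Dppa3 by 0.64 on the log2 scale, edgeR adjusted p = 0.0124 and 0.0252). In BV- cells 5 rose, among them Dppa3 (0.84), Nanos3 (1.02) and Dnd1 (0.82), each at an adjusted p of 0.0317. Dppa3 encodes STELLA, and its mean was 91.5 CPM with NRF1 OE and 58.5 with Ctrl in BV+ cells, against 144 and 80.1 CPM for BV-. With NRF1 OE, Itgb3 was higher in BV+ than in BV- cells (1.24), and Nanos3 (-1.04), Dppa3 (-0.65) and Tfap2c were lower. The list's sum was 596 to 661 CPM in BV+ cells with NRF1 OE, 633 to 637 with Ctrl, 749 to 815 in BV- cells with NRF1 OE and 659 to 683 with Ctrl.

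All groups held pluripotency transcripts, with 2490 to 3580 CPM for the sum of 8 genes. With NRF1 OE, 1 of them fell in BV+ cells (Zfp42, -0.67), and 2 rose (Esrrb 0.39, Klf2 0.39) and 1 fell (Zfp42, -0.53) in BV- cells. Between BV+ and BV- cells 0 passed with Ctrl and 4 were lower in BV+ cells with NRF1 OE, among them Pou5f1 (-0.52, adjusted p = 0.00712), which encodes OCT4. The summed level over all groups was 6.34 to 12.9 CPM for mesoderm, 11.5 to 27.8 for endoderm and 90.9 to 127 for neuroectoderm genes. Of 5 mesoderm genes tested, Hand1 (4.11) and Hand2 (2.96) were higher in BV+ than in BV- cells with NRF1 OE, and 0 passed in the other comparisons between groups. Of 6 endoderm genes tested, Ttr (-2.27) and Afp (-1.56) were lower there, and Gata6 fell by 1.08 with NRF1 OE in BV- cells. In BV+ against BV- cells with NRF1 OE, of 6 neuroectoderm genes tested Sox1 (0.93) and Pax3 (2.54, on 80 against 17 counts) were higher. Tubb3 had a lower mean there, 64.5 against 77.8 CPM with overlapping libraries, as did Neurod1, 1.41 against 1.85. Of 4 blood genes tested Runx1 was higher there (1.09, edgeR adjusted p = 0.0336), while their median was -0.198. Gata1 (0.215 against 0.47 CPM), Klf1 (0.292 against 0.442) and Spi1 (0.395 against 0.841) had lower means in BV+ cells.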
